A study of Mus musculus with 12 samples.

Results

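How the auditory nerve of the maturing mouse differs from that of the newborn was examined by pooling 4 arrays from postnatal days (P) 10 and 14 and comparing them with 4 pooled arrays from P0 and P3. The arrays were grouped by age, and the comparison was chosen with earlier results of these data known. These 8 are 8 of the 12 arrays of the series, which holds 2 arrays at each of 6 stages, and the P7 and P21 arrays serve here as reference points outside the pools. All mice were untreated CBA/CaJ animals of the same inbred strain, and both sexes were used. Per the labels, the paired cochleas of 1 mouse made up a sample. The tissue was the modiolus, the central bone of the cochlea through which the nerve runs. Per the study's methods the shell and lateral wall were taken off by microdissection, while a lesser part of the sensory epithelium stayed on, so the sample is enriched for nerve and is not pure nerve.

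The auditory nerve carries the axons of spiral ganglion neurons from the hair cells to the brainstem. Schwann cells wrap these axons in the periphery and oligodendrocytes wrap them in the short central stretch, and in the mouse this wrapping takes place mostly after birth. The pup hears nothing at P0 or P3, and hearing begins in the second postnatal week, around the ages of the later pool. In tissue of mixed cells, fewer cells of a type and less RNA per cell cannot be told apart, and this applies to each gene below.

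Levels are log2 values from the robust multi-array average (RMA), a method that corrects, scales and summarises the probes of each probe set, and the levels of different genes are not compared with each other. Array medians ran from 6.70 to 6.79, from 6.70 to 6.73 on the neonatal arrays and from 6.77 to 6.79 on the later ones. The log2 difference between 3′ and 5′ probe sets of Actb, which rises as RNA is broken or copied incompletely, was 0.92 to 1.24 on the neonatal arrays, 0.97 to 1.41 on the later arrays, and 2.32 and 2.03 at P21. Sex-linked transcripts did not match 1 mouse per array. On 6 of the 12 arrays, 1 in the neonatal pool and 3 in the later pool, Xist, which females express, lay over 12 while the 3 Y-linked genes Eif2s3y, Kdm5d and Uty all lay over 7. Of the rest, 3 arrays were high for Xist and low for the Y-linked genes, and 3 the reverse. The number of mice behind an array is therefore not settled, the p-values measure the spread between arrays, and what this does to the calls was not tested. Xist itself differed by 3.20 between the pools (adjusted p = 0.17) and was not called. The neuronal markers Snap25, Nefl and Nefm and the Schwann cell markers Pmp22 and Sox10 were well above the lowest 25% of values on every array. Sox10, a transcription factor of all peripheral glia, lay between 10.45 and 11.09 in the neonatal pool and between 10.63 and 10.83 in the later pool.

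With limma on all 12 arrays in 6 stage groups, 8665 of 45037 probe sets (19.2%) were called, that is, had an adjusted p under 0.05 and a change over 1.5-fold. Of these, 4474 (9.93%) were higher and 4191 (9.31%) lower in the later pool. Taking 1 probe set per gene, 2102 of 18193 genes (11.6%) were higher and 2268 (12.5%) lower, 24.0% together, and the median change over all genes was -0.06 on the log2 scale. These shares of genes higher and lower are the background for every count of list members below. The 4 later and 4 neonatal arrays did not overlap at 16075 probe sets (35.7%) and 7822 genes (43.0%). Most called changes were small: 5115 called probe sets (59.0%) changed by under 2-fold. Large changes were more often rises, with 301 genes up and 127 down by over 4-fold, and 26 up and 6 down by over 16-fold. In 557 called probe sets (6.43%) the dimmer pool lay wholly in the lowest 25% of array values, where a signal may be background, and such changes are given below as at least so many fold. Where some but not all arrays of the dimmer pool lay there, the fold is as measured and may be set in part by background.

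The largest rise belonged to Mobp, a structural protein of central myelin. Its level was 3.61 and 4.53 at P0, 4.46 and 5.57 at P3, and 12.41, 11.84, 12.10 and 12.26 at P10 and P14. The pools lay far apart, at a difference of 7.61 ± 0.36 (SE), or 195-fold (limma, adjusted p = 3.55e-07), though 3 of the 4 neonatal values sat within the lowest 25% of their arrays. Glra3, an alpha subunit of the inhibitory glycine receptor, was at 4.69, 4.59, 4.99 and 4.84 in the neonatal arrays and at 11.07, 10.23, 10.71 and 11.29 in the later ones, at least 52.2-fold higher (adjusted p = 7.07e-07). The 1 other Glra3 probe set was not called. Otos, encoding a secreted protein of cochlear fibrocytes, rose 65.6-fold and Thy1, a surface glycoprotein of mature neurons, rose 24.6-fold. The study also sorted fibroblasts by the Thy1 protein, so Thy1 is not particular to neurons. The other largest rises were Mog of the outer myelin surface (at least 23.9-fold), Otop1, a proton channel of the vestibular otolith organs (37.2-fold as measured, with both P0 values of 4.14 and 4.43 in the lowest 25%), the eosinophil granule protein Prg2 (at least 20.9-fold), the bone genes Ibsp (29.8-fold), Dmp1 (26.9-fold) and Phex (25.6-fold), Spink8 (24.9-fold) and the blood progenitor gene Hemgn (20.2-fold).

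The largest fall was that of Tecta, which encodes the main non-collagen protein of the tectorial membrane and is made by the sensory epithelium. It stood at 13.05, 13.21, 12.76 and 12.99 in the neonatal arrays and at 6.26, 6.93, 6.33 and 6.17 in the later ones, 95.7-fold lower (adjusted p = 1.16e-06). Crabp1, which binds retinoic acid inside cells, was at 10.52, 10.70, 9.77 and 10.35 and then at 4.96, 4.94, 4.52 and 4.94, at least 37.3-fold lower (adjusted p = 8.88e-08). In both genes every neonatal array lay more than 4 log2 units above every later array. The remaining large falls were Crym, a thyroid hormone binding protein of the cytosol (34.6-fold), the cartilage matrix gene Matn1 (29.5-fold), Chodl (at least 16.7-fold), the otoconial protein gene Oc90 (19-fold), the angiotensin receptor gene Agtr2 (15.6-fold), Ly6h (13.1-fold), the neuropeptide gene Npy (12.0-fold) and the tight junction gene Cldn6 (11.6-fold). Spink5 and the thyrotropin-releasing hormone receptor gene Trhr fell to the lowest 25% of values, by at least 4.70-fold and 3.88-fold. The 1 other Trhr probe set was not called.

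**Figure D1:**
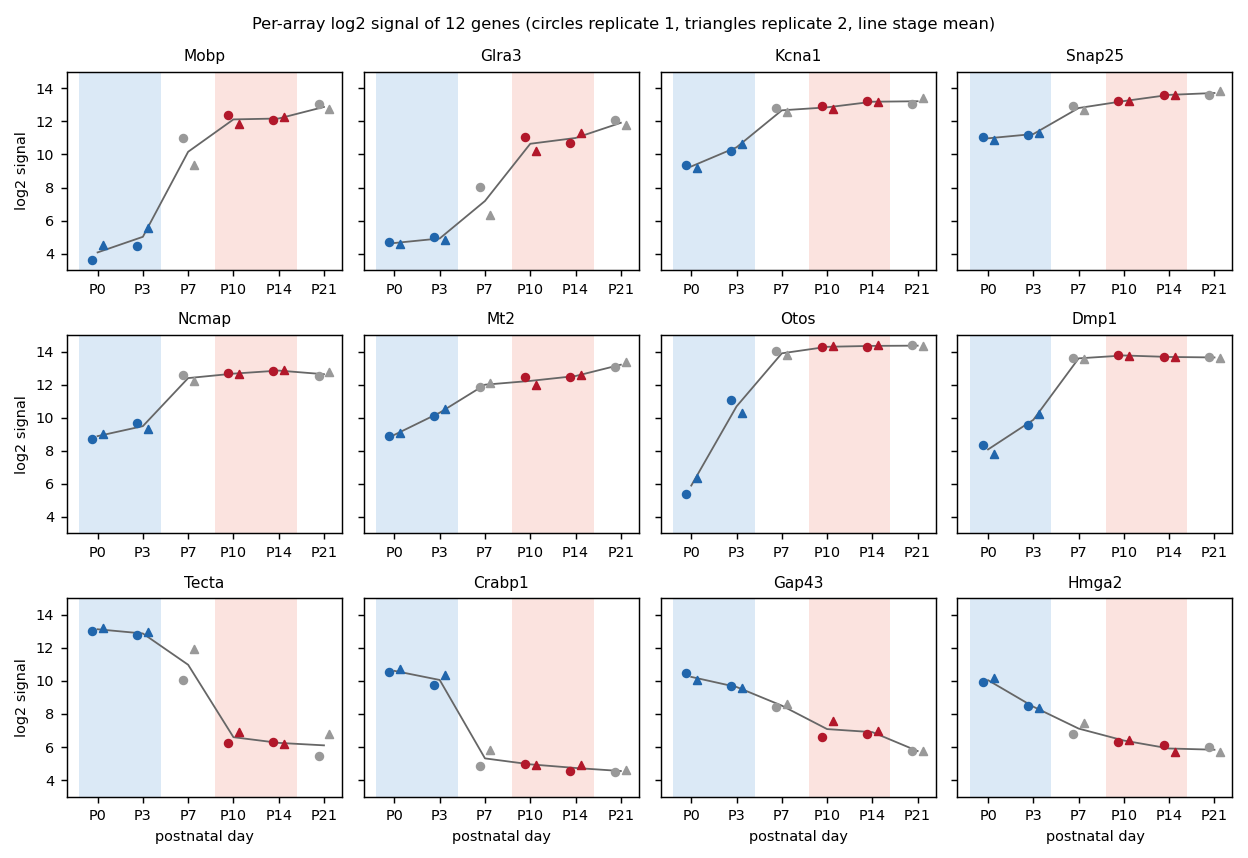
Log2 level on each of the 12 arrays (y axis, RMA units) against stage (x axis, P0 to P21) for 12 genes, 1 panel each. Points are single arrays, lines join stage means, shading marks the pools, and the later pool is separate from the neonatal pool in each panel, with Mobp 195-fold higher as measured, against a neonatal pool with 3 of 4 values in the lowest 25% of their arrays, and Tecta 95.7-fold lower.

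The pool of P10 and P14 was named a plateau when it was chosen, and the steps inside both pools were measured to check that name. Between P14 and P10 limma called 0 of 45037 probe sets (0.0%), with 3472 at an unadjusted p under 0.05 and a smallest adjusted p of 0.0866. This does not show that the stages were equal, since 729 probe sets had an unadjusted p under 0.05 and a change over 1.5-fold. The 95% interval of the change lay within 1.5-fold for 76.9% of probe sets and within 2-fold for 94.8%. The call count rested on the arrays used, with 77 probe sets called without P14 replicate 2 (73 higher and 4 lower) and 27 called without either P21 array. Within the neonatal pool, P3 differed from P0 at 1703 probe sets (3.78%), 442 (0.981%) higher and 1261 (2.8%) lower. The number called fell to 453 when P0 replicate 1 was left out, to 562 when P0 replicate 2 was and to 848 when P3 replicate 1 was.

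Some genes known from cerebellar granule neurons, out of 9 chosen after earlier values were seen, read higher at P14 than at P10. Gabra6, the GABA receptor subunit typical of these neurons, was at 5.24 and 4.8 at P10 and at 8.5 and 9.23 at P14, against 4.46 to 5.05 in the neonatal arrays. The transcription factor gene Neurod1 was at 6.34 and 6.09 at P10 and at 9.61 and 10.16 at P14. The synapse organiser gene Cbln1 was at 7.92 and 7.61 and then at 9.86 and 10.27, and its relative Cbln3 at 6.59 on both P10 arrays and at 7.77 and 8.10 at P14. The other 5 moved less from P10 to P14. Zic1 moved by 0.60, Reln by 0.56 from a level already high at P10, Fat2 by 0.51, Barhl1 by 0.11 and Zic2 by 0.07. None of the 9 steps passed the adjustment. Both P14 arrays exceeded both P10 arrays in the first 4 genes, and also in Zic1, Reln, Fat2 and Barhl1. The share of all probe sets with this order was not counted, so the order does not set these genes apart. The pooled call of Gabra6 as higher rests on the P14 arrays and was lost for P10 alone. Whether granule neurons were in the tissue, and any part of theirs in other neuronal changes, was not tested.

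Single genes also crossed between P0 and P3 in the direction opposite to the pooled change. Col10a1, a collagen of hypertrophic cartilage, rose by 3.58 from P0 to P3 and was 1.65 lower in the later pool than in the neonatal pool. Dst, a cytoskeletal linker gene, fell by 1.66 in the first step and was 1.5 higher later, and Map1b, a microtubule-associated protein of growing axons, fell by 1.58 and was 1.26 higher later, though not called against P0 alone. For Col10a1, Ptgfr and Ankrd11 the sign of the change turned when P0 alone was the reference, to 0.15, 0.22 and -0.15.

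The P7 arrays, which enter the estimate of the spread and not the contrast, both lay strictly between the pools at 1602 of the 4474 called higher and 1731 of the 4191 called lower probe sets. Over the called higher probe sets the P7 mean had covered a median of 63.0% of the way to the later mean, and over the called lower ones 64.2%. It had passed the later mean at 501 (11.2%) and 275 (6.56%) of them. At P21, both arrays were still beyond every neonatal array at 82.6% of the called higher and 90.7% of the called lower probe sets. P21 differed from the later pool at 3643 probe sets (8.09%), 1214 (2.7%) higher and 2429 (5.39%) lower, and of the called higher ones 476 (10.6%) were called back down, against 113 (2.70%) of the called lower ones called back up. Further change in the same direction was called at 432 (9.66%) of the higher and 439 (10.5%) of the lower ones. This step and the main comparison share the P10 and P14 arrays, and P21 also carried the larger Actb difference given above. The count was 2691 without P10 replicate 2 and 2461 without P14 replicate 1. Among the largest returns were Acp5, an osteoclast phosphatase, which changed by 3.52 in the later pool and by -4.11 from there to P21, the matrix protease gene Mmp13 (2.44, not called against P3 alone, and then -3.62) and Panx3, a channel of bone-forming cells (3.54 and then -3.18).

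Myelin genes rose throughout. All 14 matched members of the peripheral myelin list were called higher, with a median change of 2.05, against 11.6% of genes and a median of -0.06 over the whole array. Ncmap, a small membrane protein of peripheral myelin, was at 8.74 and 9.03 at P0, 9.68 and 9.30 at P3, and 12.72, 12.62, 12.81 and 12.90 later, 11.9-fold higher (adjusted p = 5.04e-08). Fa2h, which makes the hydroxylated fatty acids of myelin lipids, rose 11.7-fold and Mag, an adhesion protein facing the axon, 11.0-fold. Gjb1, the gap junction protein of Schwann cell myelin, rose by 2.74. Between P0 and P3 alone, 9 of the 14 were already called higher, beside 293 of all 18193 genes. Other probe sets of Mbp disagreed, 5 called higher and 1 lower.

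Pmp2, which carries fatty acids in the myelin of Schwann cells, followed another course. It was at 4.09 and 4.71 at P0, 8.80 and 8.61 at P3, 9.52 and 10.41 at P10, and 8.44 and 8.69 at P14. The P14 arrays lay within or below the range of the P3 arrays, so its pools overlapped although the pooled change was 6.55-fold (adjusted p = 2.38e-05). Against P3 alone it was not called, and at P21 it was 2.63 lower than in the later pool (adjusted p = 0.0013). Gjc3, a connexin of myelinating glia, was 1.53 higher in the later pool and 1.6 lower again at P21.

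Genes of central glia rose in most cases, with 14 of 20 called higher, 0 lower and a median of 1.64. Over the whole array 11.6% of genes were called higher. Mog was at 4.47, 4.60, 4.44 and 4.0 in the neonatal arrays, all in the lowest 25% of values, and at 9.90, 9.51, 9.37 and 10.01 later. Aqp4, the water channel of astrocyte endfeet, rose 17.4-fold, and Ermn and Olig1, genes of maturing oligodendrocytes, rose by 4.02 and 3.70. The astrocyte glutamate transporters Slc1a2 and Slc1a3 changed by -0.20 and -0.04 and were not called. Genes of immature Schwann cells went the other way in part: 6 of 19 were called lower and 1 higher, with a median of 0.02. Those lower were Gap43, Sox11, Ednrb, Ncam1, Sox2 and Fabp7, and the 1 higher was Pou3f1, a transcription factor of the promyelinating stage, which was 4.07-fold higher. Other probe sets of Ncam1 were called in both directions. Of 17 cholesterol synthesis genes 3 were called higher (Hmgcs1 by 0.83, Msmo1 by 0.67 and Sc5d by 0.65) and 0 lower, with a median of 0.24, beside 11.6% of all genes higher. Without P3 replicate 1, 5 were called higher, and with probe sets averaged 1 was. The calls of Msmo1 and Sc5d were each lost under 3 alternatives.

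**Figure D2:**
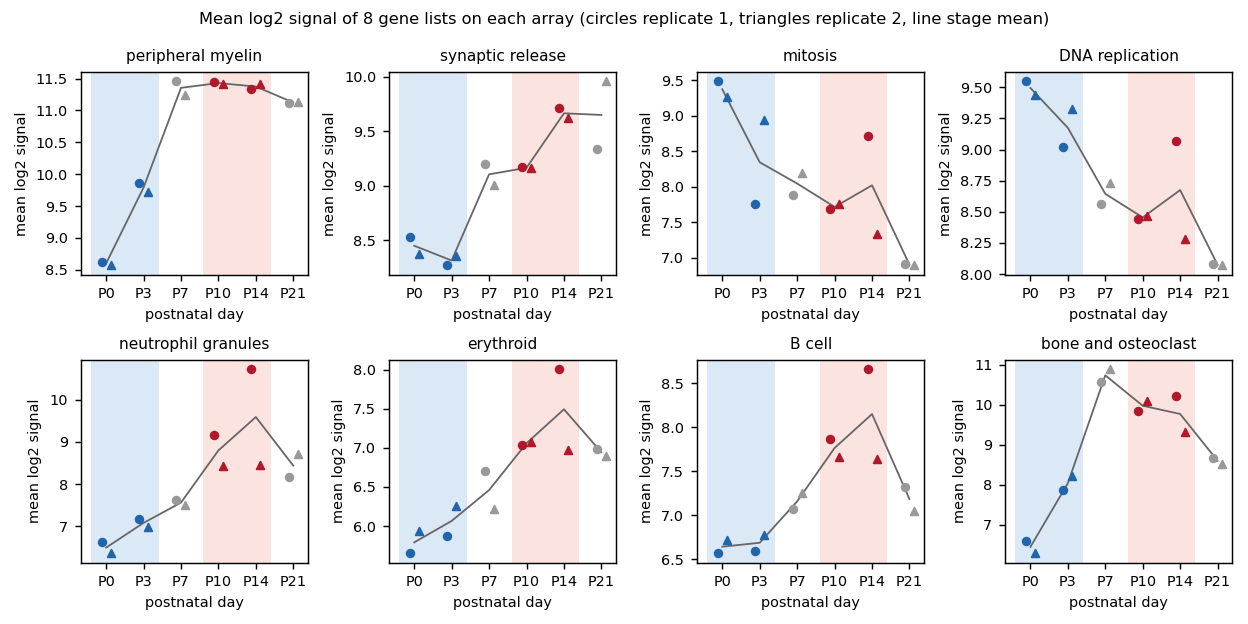
Mean log2 level (y axis, RMA units) of the members of 8 gene lists on each of the 12 arrays, by stage (x axis). Points are single arrays, lines join stage means, shading marks the pools, and peripheral myelin lies between 8.57 and 9.86 in the neonatal pool and between 11.33 and 11.45 in the later pool.

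Genes of transmitter release rose in most cases, 15 of 21 called higher and 2 lower, with a median of 0.90. Snap25, a core fusion protein of the nerve terminal, was at 11.06, 10.90, 11.18 and 11.30 and then at 13.23, 13.24, 13.59 and 13.63, 4.97-fold higher (adjusted p = 1.1e-07). Vamp1, the vesicle partner of Snap25 at fast synapses, rose 15.9-fold and Syt2, the calcium sensor of fast release, 6.09-fold. The 2 members that fell were Syt1, a second calcium sensor, by 1.53, and Stx1a by 0.84. With P10 alone as the later group, 11 members were called higher.

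Of 21 voltage-gated channel and pump genes, 9 were called higher and 4 lower. Kcnc1, a fast potassium channel that allows high firing rates, was at 7.46, 6.98, 6.59 and 6.84 in the neonatal arrays and at 10.51, 10.46, 11.39 and 11.36 later, 15.6-fold higher (adjusted p = 1.83e-07). Kcna1, a potassium channel clustered beside the nodes of myelinated axons, was at 9.39, 9.16, 10.21 and 10.66 and then at 12.95, 12.76, 13.24 and 13.15, 9-fold higher. Scn9a, a sodium channel of peripheral neurons, moved the other way, from 9.79, 9.76, 9.0 and 8.56 to 6.02, 6.0, 6.10 and 5.99, or 9.51-fold lower (adjusted p = 4.56e-08). Neither pool overlapped the other in these 3 genes, and the later Scn9a arrays were nearly level. Scn8a, the sodium channel of mature nodes, rose 8.89-fold, Scn4b, a beta subunit, by 3.56 and Kcna2 by 3.26. The other falls were Scn3a by 2.19, Kcna6 by 1.34, with another probe set called higher, and the calcium channel gene Cacna1h by 1.32. Against P0 alone, 8 members were called lower.

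Receptor genes moved in both directions, with 6 of 24 higher, 5 lower and a median of -0.03. Among all genes 11.6% were higher and 12.5% lower. The ATP-gated channel subunit gene P2rx3 was at 10.45, 10.25, 9.41 and 9.61 and then at 6.48, 7.58, 6.06 and 6.59, 9.53-fold lower (adjusted p = 2.02e-06), while P2rx2 rose from 5.76, 6.34, 6.17 and 6.74 to 8.58, 8.2, 8.16 and 8.78, or 4.52-fold. Each P2rx subunit had separate pools. Gria2, the AMPA receptor subunit that limits calcium entry, rose 4.78-fold, and Glrb, the glycine receptor beta subunit, by 1.55. Besides P2rx3, the lower members were Glra2 by 1.47, Gabra3 by 1.29, Gabrb2 by 1.27 and Gabra5 by 0.82, and 3 members were called lower without any 1 of P0 replicate 1, P0 replicate 2, P3 replicate 2, P10 replicate 1, P10 replicate 2 or P14 replicate 1. Glra1, the adult alpha subunit in other tissues, changed by 0.47 and was not called.

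Axon growth and guidance genes fell in 12 of 29 cases and rose in 2, Nfasc and Cntn2, with a median of -0.41. Gap43, a protein of growth cones and of immature Schwann cells, was at 10.46, 10.03, 9.67 and 9.6 and then at 6.62, 7.55, 6.81 and 6.99, 7.71-fold lower (adjusted p = 1.37e-06). Dcx, a microtubule protein of young neurons, was 7.03-fold lower, and the guidance receptor gene Robo2 fell by 2.06. Of 27 tubulins and microtubule or filament proteins of the cytoskeleton 14 were called higher, 5 lower and 8 neither, with a median of 0.60. Nefh, the heavy neurofilament of large axons, was at 10.43, 10.17, 9.64 and 9.93 and then at 13.02, 12.71, 13.35 and 13.34, 8.35-fold higher. Tubb3, a tubulin of all neurons, changed by 0.49 (adjusted p = 0.0513) and was not called. Against P0 alone, 9 of the 27 were called higher.

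Of 21 calcium buffer and calcium signalling genes, 8 were higher and 3 lower, beside 11.6% and 12.5% of all genes. Calb2, or calretinin, rose 6.77-fold while its relative Calb1, or calbindin, fell 2.47-fold, from 12.19, 12.49, 12.61 and 12.76 to 10.54, 11.25, 11.63 and 11.42. Vsnl1, a calcium sensor, rose by 2.66, and Atp2b3, a plasma membrane calcium pump, by 2.22. Among 30 RNA-binding proteins of growth and differentiation 9 were higher and 6 lower, beside the same shares of all genes. Igf2bp3, a fetal mRNA-binding protein, was 6.32-fold lower, and Rbfox1, Mbnl1 and Rbfox3, regulators of splicing in mature cells, rose by 1.5, 1.32 and 1.25.

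Several families hold a member known from young tissue and another known from mature tissue. In 5 of 17 such pairs the young member was called lower and the mature member higher: Tubb2b (-1.56) and Tubb4a (0.73), Fabp7 (-1.0) and Pmp2 (2.71), Scn3a (-2.18) and Scn8a (3.15), Syt1 (-1.54) and Syt2 (2.61), and the matrix proteoglycans Vcan (-2.6) and Bcan (1.5). No pair moved the opposite way. In 4 pairs the mature member alone was called (Vamp1, Cplx1, Tuba4a and Stmn4, all higher) and in 2 the young member alone (Glra2 and Ptbp1, both lower). Both members rose in 2 pairs, Map1b with Map1a and Elavl2 with Elavl3, and both fell in 1, Igf2 with Igf1. The NMDA receptor pair Grin2b and Grin2a, the chloride carriers Slc12a2 and Slc12a5 and the lactate dehydrogenases Ldha and Ldhb include members with changes of 0.03 and -0.11, -0.13 and 0.76, and -0.57 and 0.56. The difference mature minus young separated the 4 later from the 4 neonatal arrays toward the mature side in 11 of the 17 pairs, while 43.0% of single genes had pools that did not overlap, in either direction. Among the paired genes the call of Elavl3 was lost under 6 alternatives, that of Pmp2 under 4, that of Elavl2 under 3, those of Map1b and Stmn4 under 2 each and that of Tubb4a against P0 alone.

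**Figure D3:**
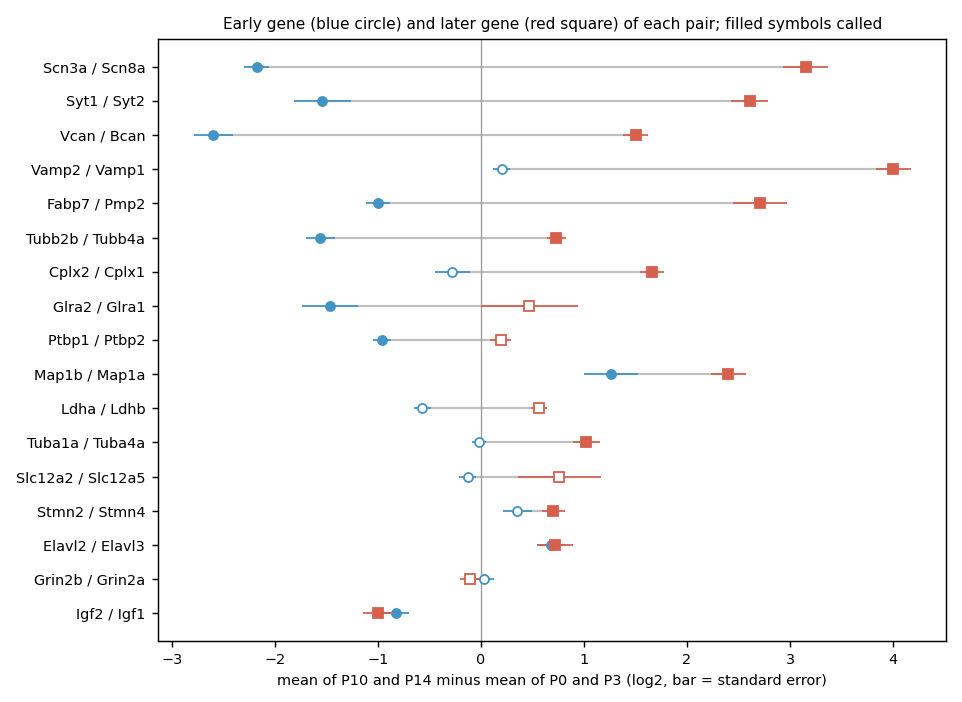
Change between the pools (x axis, log2, later minus neonatal) of the young and the mature member of 17 gene pairs (y axis, 1 row per pair). Points are the fitted changes, filled where called, bars are their standard errors, and in 5 pairs the young member is called lower and the mature member higher.

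Genes of cell division fell, but the arrays within each pool were uneven. Of 27 mitosis genes 19 were called lower and 0 higher, with a median of -1.03, against 12.5% of all genes. Racgap1, which marks the site where a dividing cell is pinched in 2, was at 9.0, 8.93, 7.58 and 8.61 and then at 6.37, 6.93, 7.35 and 6.45, 3.38-fold lower (adjusted p = 0.000549), and it was the only member whose pools did not overlap. Its lowest neonatal array, P3 replicate 1, was just above its highest later array, P14 replicate 1. Those 2 arrays stood apart across the list: the mean level of the mitosis genes was 9.49, 9.26, 7.75 and 8.94 in the neonatal arrays and 7.68, 7.75, 8.71 and 7.33 in the later ones. Without P14 replicate 1, 25 were called lower, and without P3 replicate 1, 23. Without P3 replicate 2, 11 were called, with 2 groups of 4 arrays 12, for P14 alone 10, against P3 alone 3 and by the methods' t-test 3. P14 replicate 1 was also the highest later array for neutrophil, erythroid and B cell genes, and the part of those cells in the mitosis levels was not tested. Mki67, a marker of cycling cells, changed by 0.26 and was not called.

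The promoters of many mitosis genes hold a pair of short motifs. In windows of 300 bases around the start sites of RefSeq genes on build GRCm38.p6, 250 before and 50 after, CCAAT (the binding sequence of the factor NF-Y) or its complement occurred in 37.4% of 32851 windows and TTTGAA (a cell cycle homology element) or its complement in 17.9%. Both occurred in 17 of 24 windows of the mitosis list, or 70.8%, against 6.95% of all windows, 6.67% for DNA replication genes, 5.74% for genes called lower and 4.1% for genes called higher. A match describes letters and not a bound site. The windows below belong to the 4 called members with both motifs and the largest falls, and show how the motifs lie near the start. Capitals mark CCAAT or TTTGAA read on either strand, so that a match to the other strand appears as its complement. Racgap1 lies on the minus strand at chr15:99651607-99651906, Cdk1 (the mitotic kinase, lower by a log2 change of -1.32) on the minus strand at chr10:69352863-69353162, Kif11 (a spindle motor, -1.29) on the plus strand at chr19:37376132-37376431 and Ttk (a spindle checkpoint kinase, -1.25) on the plus strand at chr9:83834439-83834738.
Racgap1: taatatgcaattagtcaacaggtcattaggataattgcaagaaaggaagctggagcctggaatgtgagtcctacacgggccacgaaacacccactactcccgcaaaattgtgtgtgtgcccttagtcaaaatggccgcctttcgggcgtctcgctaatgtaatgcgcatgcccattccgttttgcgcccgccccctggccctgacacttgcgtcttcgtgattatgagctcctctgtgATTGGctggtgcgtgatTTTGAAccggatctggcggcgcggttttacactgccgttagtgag
Cdk1: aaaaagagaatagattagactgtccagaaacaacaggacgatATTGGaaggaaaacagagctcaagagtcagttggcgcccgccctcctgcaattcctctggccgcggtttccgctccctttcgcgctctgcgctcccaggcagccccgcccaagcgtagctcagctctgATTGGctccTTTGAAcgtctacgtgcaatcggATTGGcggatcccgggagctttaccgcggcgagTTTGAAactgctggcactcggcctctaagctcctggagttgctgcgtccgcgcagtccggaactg
Kif11: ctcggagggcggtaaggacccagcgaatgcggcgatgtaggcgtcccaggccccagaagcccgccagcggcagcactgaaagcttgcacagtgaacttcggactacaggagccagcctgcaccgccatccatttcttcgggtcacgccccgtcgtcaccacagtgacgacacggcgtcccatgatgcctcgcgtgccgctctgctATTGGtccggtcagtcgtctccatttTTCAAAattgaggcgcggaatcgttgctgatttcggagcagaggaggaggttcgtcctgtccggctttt
Ttk: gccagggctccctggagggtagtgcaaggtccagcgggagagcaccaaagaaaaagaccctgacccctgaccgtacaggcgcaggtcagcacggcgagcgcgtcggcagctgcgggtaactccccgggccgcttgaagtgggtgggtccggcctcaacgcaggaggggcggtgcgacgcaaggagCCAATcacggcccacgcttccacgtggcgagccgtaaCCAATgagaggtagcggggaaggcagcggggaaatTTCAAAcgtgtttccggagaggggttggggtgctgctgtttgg

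In Kif11, Ttk and Racgap1 the TTTGAA element follows the CCAAT motif nearest the start, and Cdk1 holds 3 CCAAT and 2 TTTGAA motifs. DNA replication genes, whose windows rarely hold both, fell too, with 18 of 29 called lower, 0 higher and a median of -0.83. Mcm6, a subunit of the replicative helicase, was at 11.46, 11.48, 10.73 and 11.12 and then at 9.45, 9.45, 10.35 and 9.15, 3.03-fold lower (adjusted p = 0.000225). Its pools were separate, and P14 replicate 1 was again the highest later array. Against P3 alone, 12 replication genes were called lower. Pcna changed by -0.14 and was not called.

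Chromatin genes of progenitor cells were lower in 10 of 23 cases and higher in 0, and in 5 against P3 alone. Hmga2, a DNA-bending protein of fetal and stem cells, was at 9.91, 10.18, 8.5 and 8.38 and then at 6.33, 6.45, 6.14 and 5.68, 8.53-fold lower (adjusted p = 5.74e-07), with the P3 arrays between P0 and the later pool. Imprinted genes of fetal growth were lower in 8 of 14 cases, with a median of -0.85. Mest, Plagl1, Cdkn1c and Grb10 fell by 2.27, 2.10, 2.02 and 1.85, and Peg3, Dlk1, Zim1 and Igf2 by 1.01, 0.89, 0.86 and 0.83. The 2 higher members were Meg3, a noncoding RNA, by 1.19 and Dcn, a matrix proteoglycan, by 0.58, neither of which was called without P10 replicate 1.

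Housekeeping machinery moved by small amounts. Core spliceosome genes were called lower in 5 of 26 cases (Hnrnpd, Snrpf, Snrpg, Snrpd3 and Snrpc), beside 12.5% of all genes. A negative change was seen in 25 of 26, with a median of -0.46, beside 10494 of all 18193 genes. When the arrays were shifted to one median or compared with P0 alone, 10 were called lower, and with probe sets averaged 3. Proteasome genes gave 0 calls by limma of 26, with 9 at an unadjusted p under 0.05, 3 at an adjusted one and a median of -0.04, and 0 calls under each of the other settings, the methods' t-test included. Lysosome genes were called higher in 4 of 26, Atp6v1b2, Galc, Atp6v0a1 and Npc1, near the 11.6% of all genes. The call of Npc1 was lost under 5 alternatives, that of Atp6v0a1 under 2 and those of Atp6v1b2 and Galc with probe sets averaged. Of 29 nuclear genes of oxidative phosphorylation all had a positive change, under both further scalings as well, with a median of 0.30. Over all genes 7683 of 18193 changes were positive. Of the 29, 21 had an adjusted p under 0.05, beside 18702 of all 45037 probe sets. Only 2 were called, Ndufs1 by 0.79 and Ndufs7 by 0.60, beside 11.6% of all genes higher. The call of Ndufs7 was lost under 6 alternatives. The 95% interval of the change lay within 1.5-fold for 64.8% of all probe sets.

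Genes of energy metabolism moved in both directions. Of 24 genes of pyruvate entry and the citric acid cycle 7 were higher and 3 lower. Among all genes 11.6% were higher and 12.5% lower, so the count of falls is near the general share. Pdk4, a kinase that closes pyruvate dehydrogenase, rose 3.12-fold while its relative Pdk1 fell by 0.74, and Got1, an aspartate transaminase, rose 2.94-fold. The other falls were Suclg2 by 1.22 and Idh2 by 0.92. Of 22 glycolysis and lactate genes 8 were higher and 1, the lactate carrier gene Slc16a7, lower, with 3 lower without P3 replicate 2 or P14 replicate 1. Eno2, the neuronal enolase, was at 9.22, 8.94, 9.40 and 9.78 and then at 11.57, 11.20, 11.86 and 12.04, 5.04-fold higher (adjusted p = 8.93e-06). When all probe sets were averaged, 5 glycolysis genes were called higher.

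Hormone handling changed on both sides. Of 18 genes of thyroid hormone and glucocorticoid handling and response 12 were higher and 1 lower, with a median of 0.72. Dio2, the deiodinase that makes active thyroid hormone, was at 7.45 and 7.23 at P0, 10.34 and 10.10 at P3, 12.43 and 12.63 at P10, and 11.86 and 11.92 at P14, 10.8-fold higher in the later pool (adjusted p = 3.02e-08). It was at its highest, 12.84, on both P7 arrays and was 1.58 lower than the later pool at P21 (adjusted p = 0.000226). Hsd11b1, which regenerates active glucocorticoid, rose from 7.08, 7.01, 7.32 and 7.78 to 9.55, 8.91, 9.86 and 10.14, 4.99-fold higher (adjusted p = 3.27e-06). Hsd11b2, the enzyme that inactivates glucocorticoid, was the 1 lower member, at 9.2, 8.96, 9.22 and 8.97 and then at 6.79, 6.65, 6.36 and 6.77, 5.45-fold lower (adjusted p = 5.02e-07). The enzymes of activation and inactivation thus moved in opposite directions with no overlap of arrays. Klf9, a target gene of both hormones, rose 4.35-fold, and the receptor genes Thra and Thrb changed by -0.50 and -0.58 and were not called.

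The metallothioneins, small proteins that bind zinc and copper, led the antioxidant list, of whose 29 members 8 were higher and 3 lower. Among all genes 11.6% were higher and 12.5% lower. Mt2 was at 8.88, 9.05, 10.11 and 10.50 and then at 12.49, 11.97, 12.47 and 12.58, 6.69-fold higher (adjusted p = 4.32e-07), and its neighbour Mt1 at 9.59, 9.6, 10.89 and 10.80 and then at 12.77, 12.32, 12.79 and 12.82, 5.48-fold higher. Mt3, the form of neurons and astrocytes, rose 6.26-fold. Both Mt1 and Mt2 were called higher between P0 and P3 and again between the later pool and P21. Their promoters are shown because both genes moved together and are textbook targets of a metal response element. Capitals mark TGCNCNC, a loose form of its core, on either strand. It occurred at least once in 51.0% of all windows, 3 or more times in 7.1% and 6 or more times in 0.225%. Mt1 (chr8:94178839-94179138, plus strand) held 3 matches and Mt2 (chr8:94172368-94172667, plus strand) held 6.
Mt1: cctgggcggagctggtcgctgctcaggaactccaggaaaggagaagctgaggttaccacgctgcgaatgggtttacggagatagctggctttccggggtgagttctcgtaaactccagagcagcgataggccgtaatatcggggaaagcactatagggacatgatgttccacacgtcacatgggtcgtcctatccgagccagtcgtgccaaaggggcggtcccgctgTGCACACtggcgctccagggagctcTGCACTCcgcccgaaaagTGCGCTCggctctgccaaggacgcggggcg
Mt2: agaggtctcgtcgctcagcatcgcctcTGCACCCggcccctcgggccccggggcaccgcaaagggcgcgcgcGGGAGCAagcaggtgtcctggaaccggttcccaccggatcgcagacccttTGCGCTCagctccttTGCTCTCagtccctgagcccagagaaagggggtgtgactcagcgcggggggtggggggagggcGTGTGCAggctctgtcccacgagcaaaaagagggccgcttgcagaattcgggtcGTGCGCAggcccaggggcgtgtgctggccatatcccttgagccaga

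The lower antioxidant genes were Selenbp1, Prdx4 and Gpx7, by 1.02, 1.0 and 0.92. Clock genes were higher in 9 of 18 cases and lower in 0, with a median of 0.58. Npas2, a partner of the core clock factor, was at least 3.37-fold higher, Bhlhe40, a repressor of the clock, 2.98-fold, and Rora and Per3 by 1.55 and 1.45. The core factor gene Arntl changed by -0.14 and was not called.

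**Figure D4:**
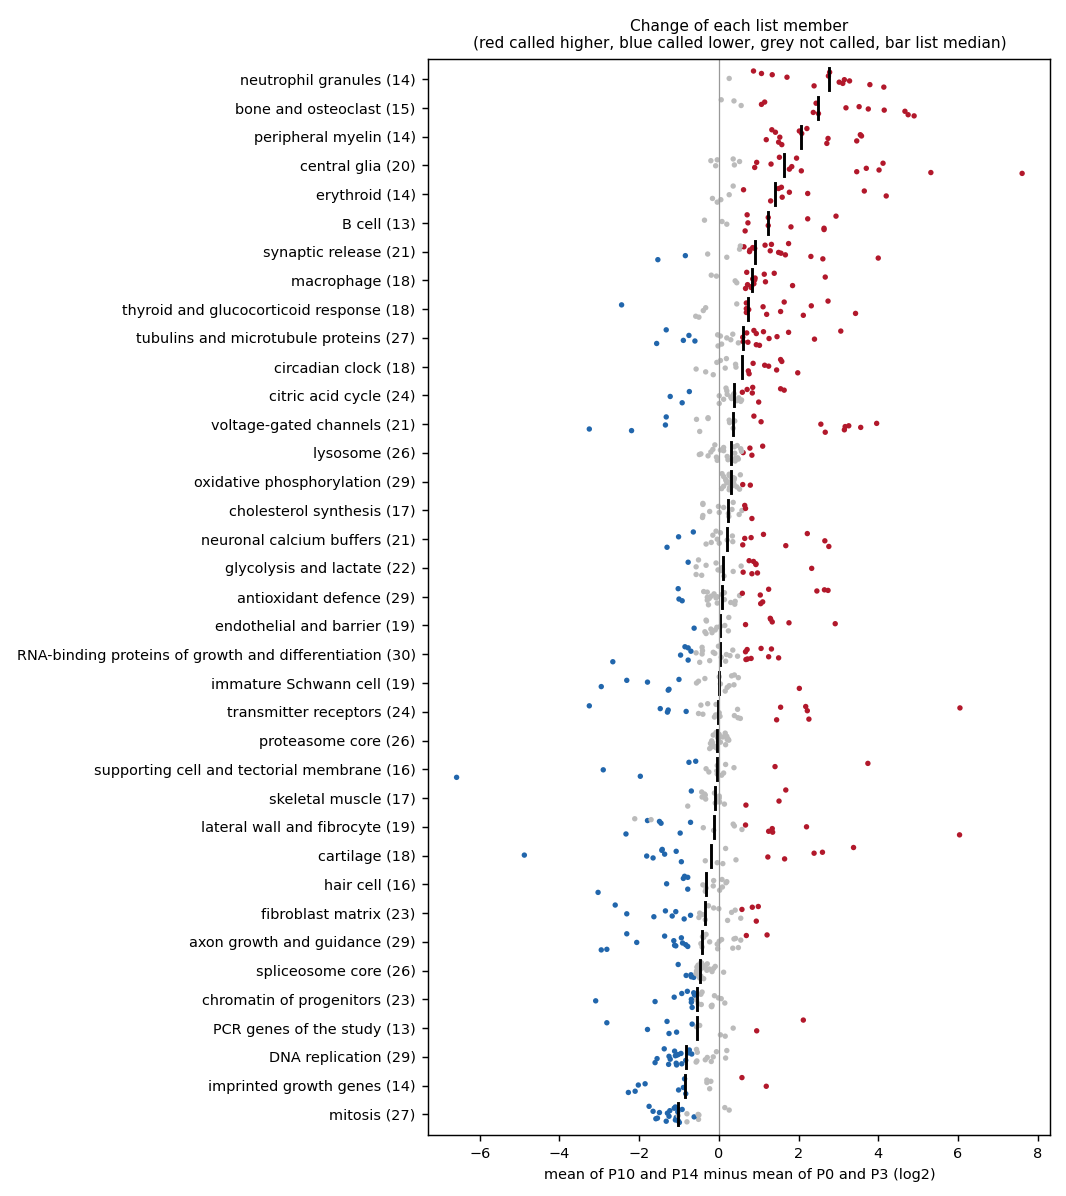
Median change between the pools (x axis, log2, later minus neonatal) of the members of each of 37 gene lists (y axis), with single members as points, red where called higher and blue where called lower. Neutrophil granule genes (2.76), bone genes (2.50) and peripheral myelin genes (2.05) lie farthest to the right and mitosis genes (-1.03) farthest to the left.

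Genes of the tissue around the nerve changed as well. Bone and osteoclast genes were higher in 12 of 15 cases and lower in 0, with a median of 2.50, their mean level running from 6.29 to 8.21 in the neonatal arrays and from 9.33 to 10.21 in the later ones. Dmp1, a matrix protein of osteocytes, was at 8.34, 7.82, 9.53 and 10.22 and then at 13.80, 13.74, 13.67 and 13.69, 26.9-fold higher (adjusted p = 4.46e-08). The later Dmp1 arrays were nearly level, and the P3 arrays were above the P0 arrays. At P21, 10 of the 15 bone genes were called lower than in the later pool, beside 643 of all 18193 genes. Cartilage genes were divided, 5 of 18 higher and 8 lower: Matn1 fell 29.5-fold while Ucma, made by late cartilage cells, rose 10.4-fold and the link protein gene Hapln1 by 2.6. None of the 3 other Hapln1 probe sets was called, and its call was lost with probe sets averaged. Against P0 alone 5 cartilage genes were called lower. Fibroblast matrix genes were lower in 8 of 23 and higher in 4, with Vcan, Fbn2, Col6a3 and Tnc lower by 2.6, 2.31, 1.63 and 1.34.

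Genes of the sensory epithelium, most of which was dissected away, were detected in the neonatal arrays. Atoh1, the factor that specifies hair cells, was at 8.76, 8.89, 8.13 and 7.84 and then at 5.29, 5.22, 5.41 and 5.58, 8.17-fold lower (adjusted p = 6.4e-08). In all, 6 of 16 hair cell genes were lower and 0 higher. Of 16 supporting cell and tectorial membrane genes 5 were lower, Tecta, Hes5, Tectb, Fgf20 and Bmp4, and 2 higher, Emilin2 and Gjb6, with 3 lower for P10 alone. The hair cell list mean lay between 7.28 and 7.46 in the neonatal arrays and between 6.80 and 6.92 in the later ones. The share of these falls that comes from how much epithelium was left on each nerve was not tested.

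Of 19 lateral wall and fibrocyte genes 6 were higher and 6 lower, with 3 lower for P10 alone or against P3 alone. Otos was at 5.41 and 6.37 at P0, 11.10 and 10.27 at P3, and 14.27, 14.32, 14.29 and 14.41 later (adjusted p = 6.95e-08). It rose between P0 and P3 by 4.79 alone, and the later arrays were nearly level. Coch, another abundant fibrocyte gene, rose by 2.20, and the pendrin gene Slc26a4 by 1.34 with overlapping pools. Kcne1, a potassium channel subunit of marginal cells, was 5.05-fold lower, but its arrays ranged from 6.17 to 9.72 in the neonatal pool and the call was lost under 14 alternatives. Skeletal muscle genes gave 3 higher, Pvalb, Myh1 and Actn2, and 1 lower, Myog, of 17, beside 11.6% and 12.5% of all genes. Pvalb is also counted among the calcium buffer genes called higher, so it is not particular to muscle. The call of Actn2 was lost under 2 alternatives and that of Myog without P10 replicate 1. Endothelial genes were higher in 6 of 19 and lower in 1, Emcn. The barrier transporter gene Slco1c1, which carries thyroid hormone, was 7.57-fold higher, Slco1a4 1.76 higher and the efflux pump gene Abcb1a 1.34 higher on the log2 scale, while the general endothelial genes Cdh5 and Pecam1 changed by -0.17 and -0.32 and were not called.

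Blood and marrow genes were higher in the later pool. Neutrophil granule genes were called higher in 13 of 14 cases with a median of 2.76, erythroid genes in 9 of 14 with a median of 1.4, B cell genes in 10 of 13 with a median of 1.24 and macrophage genes in 14 of 18 with a median of 0.83, and none of these lists had a member called lower. Camp, an antimicrobial peptide of neutrophil precursors, was at 6.98, 6.34, 7.69 and 6.40 and then at 11.08, 10.05, 12.83 and 10.00, 17.6-fold higher (adjusted p = 0.000181). Slc4a1, the anion exchanger of red cells, rose 18.3-fold, Ighm, the heavy chain of early B cells, 7.69-fold and Lyz2, the lysozyme of macrophages and neutrophils, 6.38-fold. P14 replicate 1 had the highest level of all 4 of these genes in the later pool. The neutrophil list mean was 10.72 on that array against 8.42 to 9.17 on the other later arrays, and the B cell mean 8.66 against 7.64 to 7.87. Without it 11 neutrophil and 7 B cell genes were called higher. With P10 alone, and by the methods' t-test, 8 neutrophil genes were called, and against P3 alone 10 macrophage genes. Another probe set of the haemoglobin gene Hbb-b2 was called lower, and the call of Ighm was lost with probe sets averaged. The neonatal list means were 6.36 to 7.18 for neutrophil, 6.57 to 6.78 for B cell, 5.65 to 6.26 for erythroid and 8.15 to 8.64 for macrophage genes.

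The genes that the study measured by PCR were looked up on the arrays. That PCR compared adult nerves after ouabain injury with control nerves. It did not measure maturation, so the array directions here are no check of it. Of the 13, the arrays called 2 higher, Shh and Gfap, and 6 lower, Dcx, Ednrb, Calb1, Sox2, Nedd4l and Fgf10. Shh, a secreted growth signal, was 4.36-fold higher and Sox2, a factor of progenitors and immature glia, fell by 1.25. Nes, or nestin, and the low-affinity neurotrophin receptor gene Ngfr changed by 0.04 and 0.16 and were not called. The study described nestin expression as declining during postnatal maturation, from comparisons of single stages with P0. It also stained for the protein, which it found in P0 nerve and not in normal adult nerve. The change given here is of RNA, has P3 in its reference and ends at P14, so it does not test that description. The 13 genes were picked by the study, possibly with these arrays in view, so their directions are not independent evidence. At the other extreme, 8 genes with a mean level over 9 had the tightest intervals around 0, among them the proteasome subunit gene Psmd4 (95% interval -0.14 to 0.15), the small GTPase gene Rac1 (-0.14 to 0.15) and the ubiquitin ligase scaffold gene Cul1 (-0.15 to 0.15).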

How the data were processed

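RNA from 12 samples was hybridised by the authors to Affymetrix mouse whole-genome arrays after 3′ amplification. Expression Console from Affymetrix, with RMA and MAS5, is named in the submitters' processing notes without a version. The deposited table holds log2 RMA values, and it was used with no further normalization. Of 45101 probe sets, 64 controls were left out. A gene is its single-symbol probe set with the highest mean, which gives 18193 genes. Symbols came from the platform annotation. Of 844 list entries 72 did not match and were not analysed here, and those that matched gave 769 members after repeats within a list were dropped.

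Stage means were fitted on all 12 arrays with limma 3.58.1 in R 4.3.3 (6 residual degrees of freedom, prior 4.03), with the contrast (P10 + P14)/2 minus (P0 + P3)/2. P-values were Benjamini-Hochberg adjusted over the 45037 probe sets. The fit was tested on simulated data. The number of arrays limits the precision. Named genes were the 12 largest rises and falls, up to 4 called members per list, the paired genes, the largest opposing steps at P3 and P21 and the 8 steadiest genes. Further list members were named to complete small counts or to show uncalled ones, after their values were seen. The comparison and the 37 lists were chosen with earlier results of these data known. Alternatives were a replicate block, intensity trend, array weights, scaling, the 8 arrays alone, a filter on dim probe sets, single stages, single arrays left out, fold limits, probe set averaging and the methods' t-test. Promoter windows came from RefSeq on GRCm38.p6, with mouse chromosome 18 left out.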

Additional observations from a re-analysis of the deposited data

Results flagged for a closer look

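The mean levels of the 37 gene lists, 2 ratios of 3′ to 5′ probe signal and the array median were checked for a lone array in both pools of 4. Of these 80 checks 5, all of list levels, found one whose gap to its neighbour exceeded Dixon's 95% critical share of the range. Chance gives about 1 in 20 such pools, and each pool spans 2 stages. In the neonatal pool, P3 replicate 1 was the highest array for cholesterol synthesis (10.08, against 9.90 to 9.91 on the others) and for clock genes (8.38, against 8.25 to 8.26). In the later pool, P14 replicate 1 was the highest for lysosome genes (11.19, against 11.14) and for erythroid genes (8.01, against 6.98 to 7.08). P14 replicate 2 was the highest for oxidative phosphorylation (12.87, against 12.81 to 12.82).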

How the results depend on the processing

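The main count of 8665 called probe sets stayed between 8018 and 9008 when single arrays were left out (4111 to 4671 higher, 3907 to 4337 lower). With a fold limit of 2 it was 3550, of which 2078 were higher and 1472 lower. Shifting the arrays to one median gave 3962 higher and 4991 lower, so that falls outnumbered rises, where the main fit had more rises. Leaving out single arrays gave 453 to 1989 calls for P3 against P0 (126 to 542 higher, 327 to 1447 lower), 0 to 77 for P14 against P10 (0 to 73 higher, 0 to 4 lower) and 2461 to 4022 for P21 against the later pool (822 to 1580 higher, 1636 to 2729 lower). With array weights 1 probe set, higher, was called for P14 against P10. The methods' t-test gave 8378 calls at its own threshold and 7663 after Benjamini-Hochberg adjustment. Replicate numbers name no shared animal, litter or day. Replicate differences of the 15 pairs of stages correlated between -0.12 and 0.32, so the numbers do not pair the arrays, and the fit with the replicate block gave 8667 calls for the main comparison and 2 for P14 against P10 (1 higher, 1 lower).

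Of 200 genes named by rule, 177 were called, 139 of them under every alternative other than the fold limit, and 38 lost the call under at least 1. Of 5593 values under alternatives, 3 changed sign: against P0 alone, Col10a1 (0.15), Ptgfr (0.22) and Ankrd11 (-0.15). The cause of these shifts was not tested.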
